A study of Homo sapiens with 6 samples.

Results

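The 50 genes described here encode the machinery that prepares replication origins in G1 phase and copies DNA at the forks in S phase. They are chosen by name, as listed genes of the origin and fork complexes, but with earlier results of these data known. The choice was therefore not blind to the data. All 50 are found among the 24462 gene symbols of the count files, each with 1 entry. The data are bulk RNA-seq of 1CT, an immortalized human colonic epithelial cell line (HCEC) with wild type APC, and of 1CT-A, which the labels describe as its APC knockdown, with 3 libraries of each line from untreated cells in the same medium, which holds EGF, selenite and 2% FBS. HCEC 1CT cells are known to be immortalized with CDK4 and hTERT, so both lines share a forced G1 kinase. How 1CT-A was depleted of APC, whether it is 1 clone, and whether the libraries of a line come from separate cultures are not given in the sources used here, so p values measure the spread between these libraries, which may be technical.

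The library totals run from 7788679 to 8452258 counts in 1CT and from 11158108 to 12602988 counts in 1CT-A. APC, the targeted gene, is at 46.6 ± 2.75 CPM (counts per 1000000 of the library total, SD, n = 3) in 1CT and at 31.9 ± 2.21 CPM (SD, n = 3) in 1CT-A, which is -0.58 as log2 fold change (edgeR adjusted p = 0.00018, standard error 0.09). Of 10 intestinal epithelial markers, 6 have at most 3 counts in every library, among them EPCAM, VIL1 and CDX2. KRT18 is the only one above that level in every library, with 82 to 109 counts in 1CT and 36 to 80 counts in 1CT-A (log2 fold change -1.19, edgeR adjusted p = 0.00088). All 8 fibroblast and mesenchyme markers are above 3 counts in every library. The fibroblast list sums to 4664 to 5656 CPM in 1CT and to 4301 to 4605 CPM in 1CT-A, but its members move in both directions, from COL3A1, a fibrillar collagen, at 2.37 as log2 fold change to PDGFRB, a growth factor receptor, at -0.98. In both lines, leukocyte and endothelial markers sum to at most 2.31 CPM. KRT19 has 20, 27 and 34 counts in 1CT and 0 counts in the 1CT-A libraries, where 0 counts allow up to 0.269 CPM (3 counts, counting error only).

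Replication begins with licensing. The origin recognition complex (ORC) binds DNA and, with CDC6 and CDT1, loads the ring of MCM2 to MCM7 as an inactive helicase, while geminin (GMNN) holds CDT1 back outside G1 phase. In S phase the kinase CDC7 with its activator DBF4 and the cyclin dependent kinases bring CDC45 and the GINS complex to the ring, and the active helicase opens the fork for DNA polymerases alpha, delta and epsilon. Many of these genes are textbook targets of the E2F transcription factors, which act at the entry to S phase.

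Nearly all of the 50 listed genes have a higher RNA level in 1CT-A. POLD4 and TICRR, replication genes outside this list, fall and are given further below. All 50 genes pass the filter on low counts. PRIM1, with 10, 11 and 7 counts in 1CT, passes it only with its 1CT-A libraries, where it is higher. Its place in the counts of rises below depends on that. With the quasi-likelihood test of edgeR and Benjamini-Hochberg adjustment over 12514 genes, 48 of them rise at an adjusted p under 0.05, beside 25.0% of all genes tested that rise. None falls, beside 26.0% of all genes tested that fall. The number of falls is 0 also in DESeq2 and in limma-voom, and since all 50 estimates are above 0, it is 0 at an unadjusted p under 0.05 as well. The median log2 fold change of the 50 genes is 0.77, and that of all genes tested is -0.01. Of the 50 genes, 29 lie above the 90th percentile of all genes tested (0.67) and 16 above the 95th percentile (0.92). Where a change must reach 2-fold with p under 0.01 before adjustment, the thresholds of the study's methods, 14 genes are higher and 0 are lower, beside 3.80% and 9.60% of all genes tested. For 48 of the genes every 1CT-A library is above every 1CT library, as are 31.8% of all genes tested, and none is below every 1CT library, as are 27.9% of all genes tested. The 50 genes together take 1868, 1896 and 1910 CPM of the 1CT libraries and 3495, 3372 and 3393 CPM of the 1CT-A libraries.

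**Figure D1:**
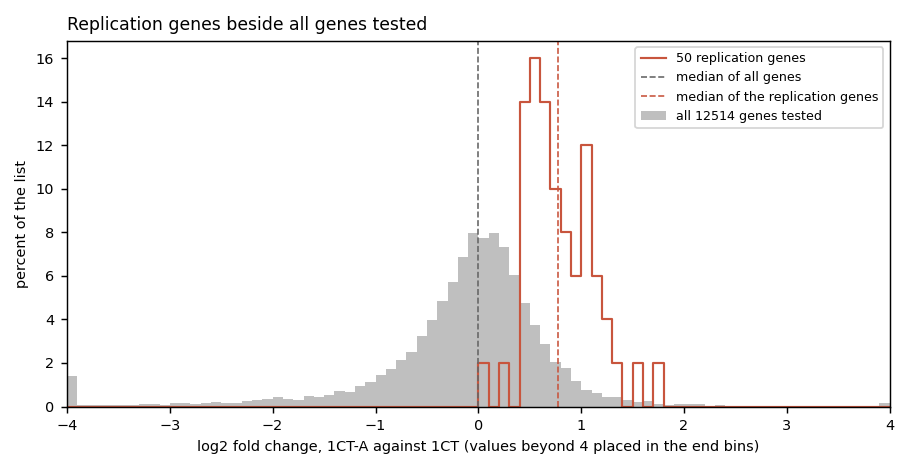
Distribution of log2 fold changes between 1CT-A and 1CT (horizontal axis, positive where 1CT-A is higher) as percent of each list (vertical axis), for all 12514 genes tested (grey bars) and the 50 replication genes (red line), with both medians as dashed lines. The replication genes lie between 0.07 and 1.78, with a median of 0.77, while the median of all genes is -0.01.

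Cells in S phase and RNA per cell cannot be told apart in bulk samples, so a rise can stand for more cells in S phase or for more RNA in each of them. Markers of proliferating cells move with the replication genes. MKI67, TOP2A, CCNA2 and BIRC5 sum to 1279 to 1453 CPM in 1CT and to 2418 to 2523 CPM in 1CT-A, with log2 fold changes from 0.39 (MKI67) to 1.22 (CCNA2), and all 4 rise at an adjusted p under 0.05. TOP2A holds most of both sums, with means of 1024 CPM in 1CT and 1884 CPM in 1CT-A. It is also 1 of the other pathway genes below, so it is not a separate marker. The part of these markers in the result was not tested. Of the 50 genes, 18 belong to the S phase list of Seurat, whose rise in 1CT-A was known when the genes were chosen, and all 18 rise, with a median of 0.87. The other 32 genes hold 30 that rise and have a median of 0.62.

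**Figure D2:**
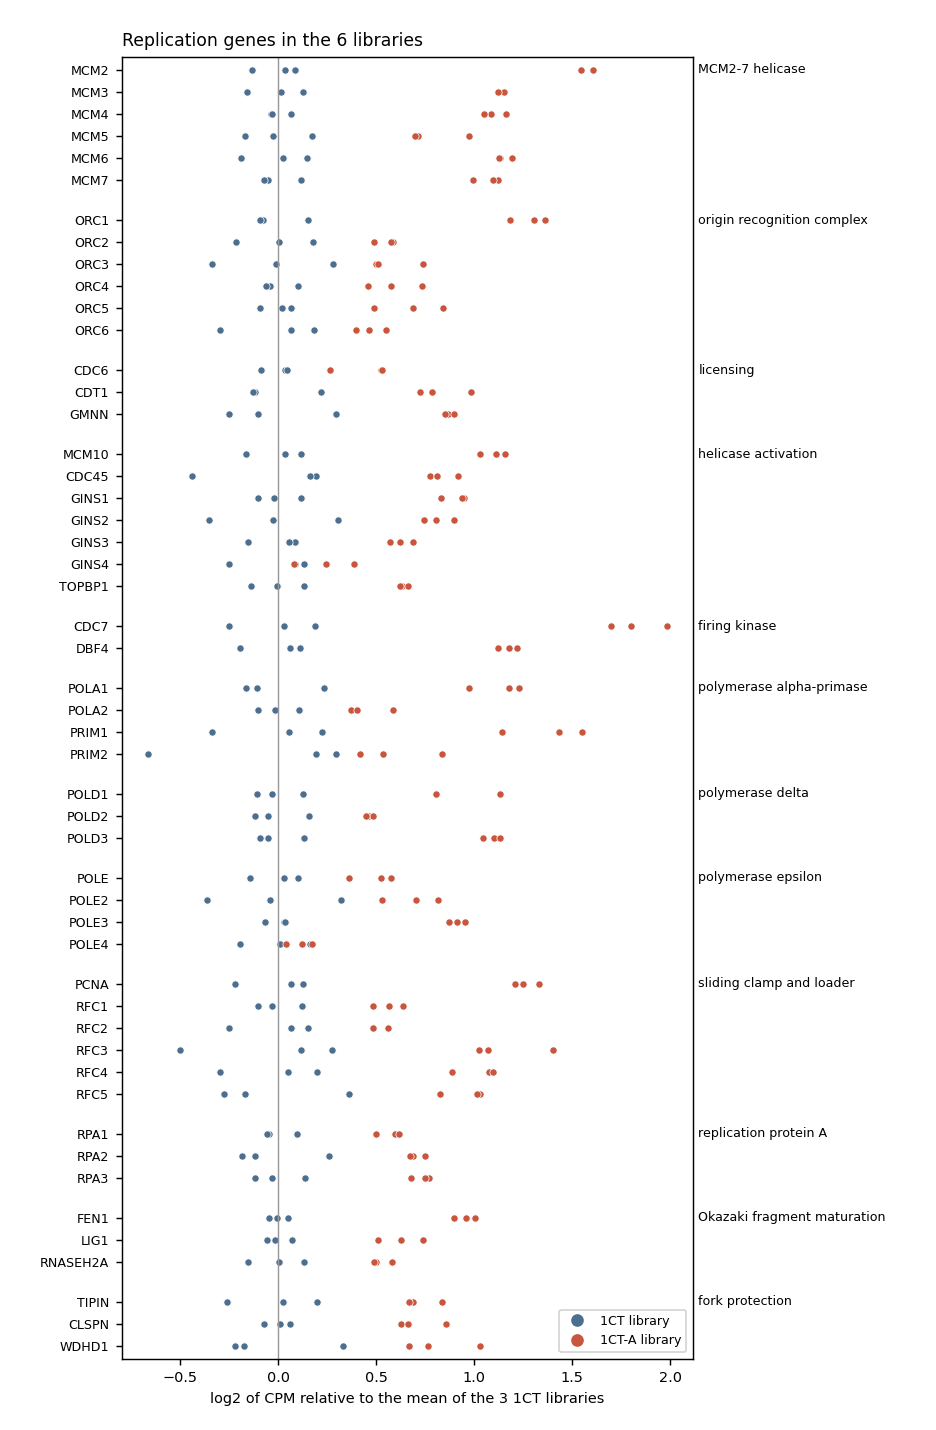
The 50 replication genes by role, with each library as a point at the log2 of its CPM relative to the mean of the 3 1CT libraries (horizontal axis), 1CT in blue and 1CT-A in red. The red points lie to the right of the blue points of the same gene for 48 genes, and the 2 lines overlap for GINS4 and POLE4.

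Promoter sequences from RefSeq (GRCh38.p14, 250 bases before to 50 bases after the gene start) were matched for 44 of the 50 genes. They were searched on both strands for 4 words of the E2F site, TTTGGCGC, TTTCCCGC, TTTCGCGC and TTTGCCGC. At least 1 such word is present in 20 of the 44 promoters (45.5%), in 4.15% of the 16153 promoters of symbols in the count files and in 3.33% of all 27305 promoters. Among 45 promoters of other replication pathway genes listed below it is present in 8.89%. A match describes these letters only, and G and C rich words are more frequent in promoters rich in G and C. The windows below show the upstream part of such promoters for 5 of the genes that rise by at least 2-fold, for CDT1 as a licensing factor, and for POLE4, which did not pass the test. Bases of the words are in capitals, and each sequence reads 5′ to 3′ on the strand of its gene.
MCM6, helicase subunit, chr2:135876502-135876615, minus strand: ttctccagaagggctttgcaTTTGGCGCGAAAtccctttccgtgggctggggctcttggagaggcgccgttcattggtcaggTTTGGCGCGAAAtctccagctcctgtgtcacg
MCM3, helicase subunit, chr6:52284889-52284936, minus strand: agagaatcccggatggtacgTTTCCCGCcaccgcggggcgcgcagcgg
POLA1, polymerase alpha, chrX:24693761-24693808, plus strand: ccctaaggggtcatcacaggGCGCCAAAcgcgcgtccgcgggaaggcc
PCNA, sliding clamp, chr20:5126654-5126701, minus strand: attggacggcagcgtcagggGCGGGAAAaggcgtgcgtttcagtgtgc
RFC3, clamp loader, chr13:33818074-33818121, plus strand: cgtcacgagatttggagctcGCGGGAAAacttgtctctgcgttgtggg
CDT1, licensing factor, chr16:88803734-88803781, plus strand: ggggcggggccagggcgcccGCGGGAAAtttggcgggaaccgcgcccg
POLE4, polymerase epsilon, chr2:74958592-74958639, plus strand: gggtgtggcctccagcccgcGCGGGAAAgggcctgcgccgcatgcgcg

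In MCM6, 4 matches fall on 2 places, because the words TTTGGCGC and TTTCGCGC overlap on opposite strands in each run of capitals. The median log2 fold change is 0.73 for the 20 genes with a word, from 0.07 to 1.52, and 0.79 for the 24 genes without one, from 0.43 to 1.78. CCAAT, the box bound by NF-Y, is present in 54.5% of the members' promoters in 48.9% of those of the other pathway genes and in 35.7% of all promoters. TTTGAA and TTCGAA, words of the CHR element of genes expressed late in the cell cycle, are present in 2 of the 44 promoters (4.55%), those of MCM6 and DBF4, and in 16.6% of all promoters.

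**Figure D3:**
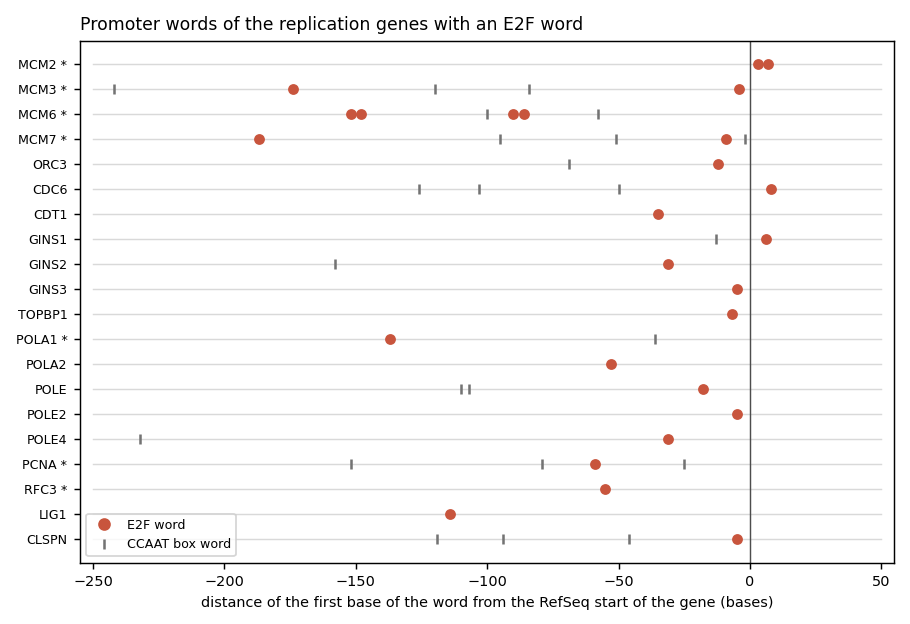
Positions of E2F words (red points) and CCAAT boxes (grey ticks) relative to the RefSeq gene start (horizontal axis, in bases) in the 20 promoters with an E2F word, with a star at genes that rise by at least 2-fold. The first bases of the E2F words lie between positions -187 and 8 from the start, and stars mark 7 of the 20 genes.

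The MCM2 to MCM7 genes, which encode the helicase ring, rise together. MCM2, on chromosome 3 from 127598410 to 127622436 (GRCh38, GENCODE release 44), has the largest change among them, with 36.4, 37.8 and 32.5 CPM in 1CT and 104, 104 and 108 CPM in 1CT-A (log2 fold change 1.52, standard error 0.08, edgeR adjusted p = 1.5e-08). MCM3 is at 74.9, 84.5 and 91.3 CPM in 1CT and at 182, 186 and 182 CPM in 1CT-A (log2 fold change 1.09, standard error 0.08). MCM4 is at 98.6, 91.8 and 92.3 CPM and at 211, 200.2 and 195 CPM in the same order (1.06, standard error 0.07). For these 3 subunits the libraries of each line lie close together, and the gap between the lines is larger than the spread within either. MCM6 goes from 13.8, 16.1 and 17.5 CPM in 1CT to 36.1, 34.6 and 34.5 CPM in 1CT-A (1.11, standard error 0.11). MCM7 goes from 60.1, 59.2 and 67.5 CPM to 135, 133 and 124 CPM (1.03, standard error 0.08). MCM5 has the smallest change of the ring, from 41.9, 38.0 and 48.1 CPM to 83.9, 70.1 and 69.3 CPM (0.76, standard error 0.11, edgeR adjusted p = 8.3e-05), and is the only subunit under 2-fold. The 95% interval of MCM2 (1.35 to 1.70) lies above those of MCM3 (0.91 to 1.27), MCM4 (0.91 to 1.22), MCM5 (0.53 to 1.00) and MCM7 (0.85 to 1.21). It just meets that of MCM6 (0.88 to 1.35). These differences between genes were not themselves tested. Summed over the ring, the 1CT libraries hold 334 ± 13.1 CPM (SD, n = 3), while 731 ± 19.7 CPM (SD, n = 3) are found in 1CT-A.

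**Figure D4:**
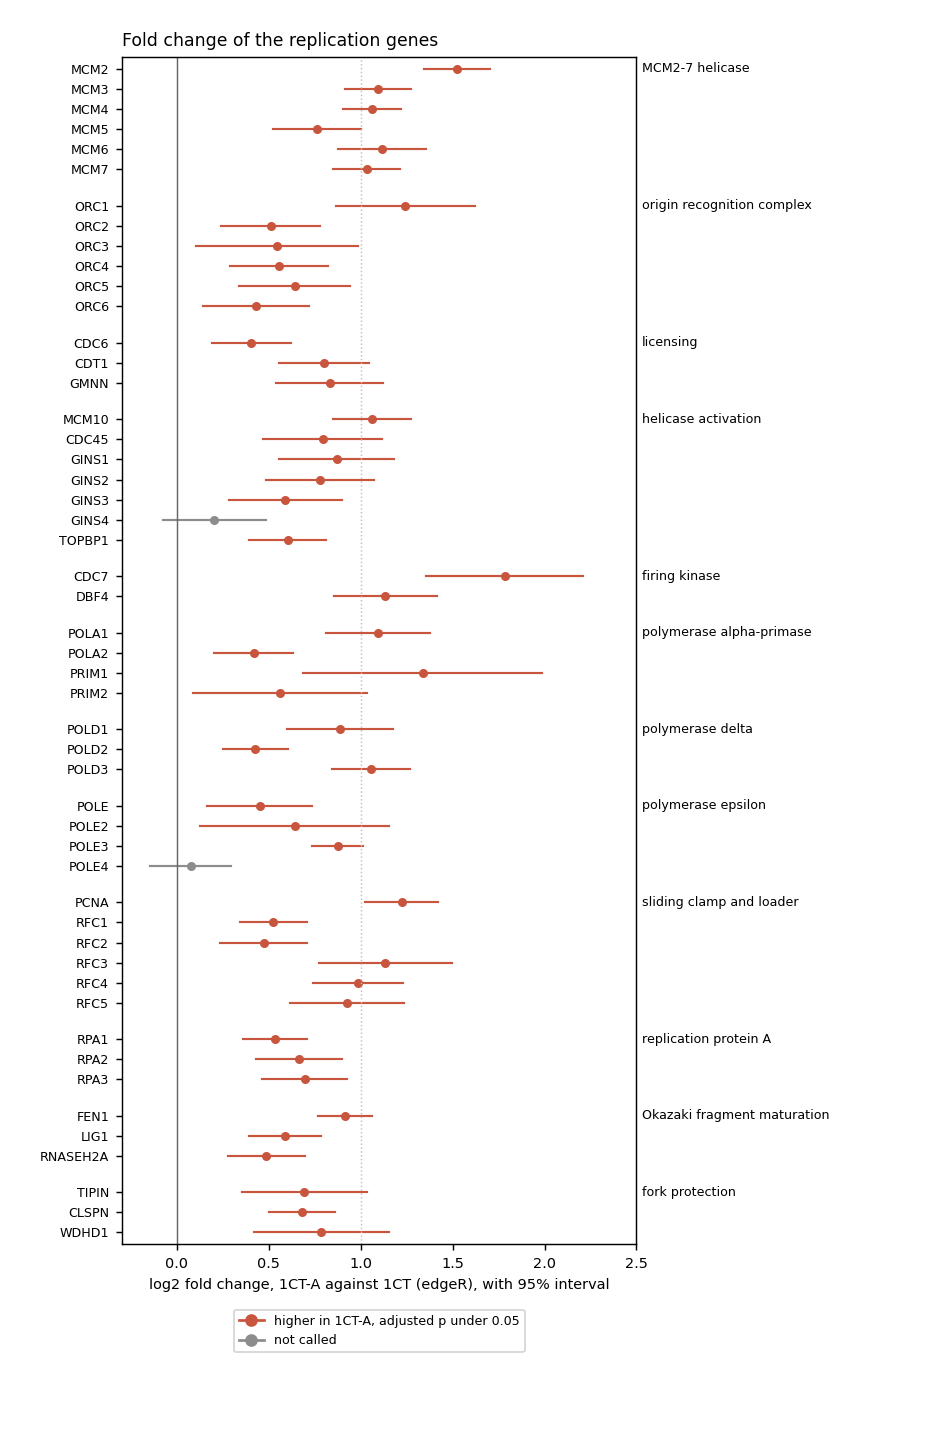
Log2 fold change between 1CT-A and 1CT in edgeR (horizontal axis, positive where 1CT-A is higher) with its 95% interval for the 50 replication genes by role, where red marks an adjusted p under 0.05, grey the others, and the dotted line a 2-fold rise. The intervals of GINS4 (-0.08 to 0.48) and POLE4 (-0.15 to 0.30) include 0, and CDC7 lies farthest to the right at 1.78.

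Among the origin recognition genes ORC1, the subunit whose level is known to follow the cell cycle in human cells, rises most. It is at 4.26, 3.62 and 3.59 CPM in 1CT and at 8.69, 9.83 and 9.44 CPM in 1CT-A (log2 fold change 1.24, standard error 0.17, edgeR adjusted p = 6.4e-05), which rests on 28 to 36 counts per 1CT library. The other 5 subunits rise by less, from 0.43 to 0.64. ORC2 goes from 16.2, 14.4 and 12.3 CPM to 21.5, 21.3 and 20.1 CPM (0.51, standard error 0.12), and ORC4 from 13.0, 14.4 and 12.8 CPM to 20.0, 18.4 and 22.3 CPM (0.56, standard error 0.12). ORC5 goes from 9.58, 9.90 and 8.86 CPM to 13.3, 16.9 and 15.2 CPM (0.64, standard error 0.14). None of these overlaps between the lines. ORC6 goes from 17.0, 15.7 and 12.2 CPM to 22.0, 19.7 and 20.6 CPM (0.43, standard error 0.13, edgeR adjusted p = 0.015). ORC3 is the least certain subunit, at 5.32, 4.35 and 3.47 CPM in 1CT and 6.18, 6.23 and 7.30 CPM in 1CT-A (0.54, standard error 0.20, edgeR adjusted p = 0.039). Its call is lost in 8 of the 14 alternatives, among them DESeq2 (adjusted p = 0.096), and that of ORC6 without 1CT-A replicate 1 (edgeR adjusted p = 0.056). As a ratio within each library, ORC1 stands to ORC2 as 0.263, 0.252 and 0.292 in 1CT and as 0.404, 0.461 and 0.470 in 1CT-A (two-sided exact permutation test, p = 0.1, below which 3 libraries against 3 cannot go). Such ratios were computed for 9 chosen pairs of genes only. For the 6 pairs whose lines do not overlap, the Benjamini-Hochberg adjusted p of this exact test is 0.15. The ratios restate differences between fold changes given here, and no share over other pairs stands beside them.

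Of the licensing factors, CDC6, the ATPase that joins ORC at origins, rises least. It is at 34.1, 34.3 and 31.3 CPM in 1CT and at 47.8, 39.9 and 47.9 CPM in 1CT-A (log2 fold change 0.41, standard error 0.10, edgeR adjusted p = 0.0041). CDT1, which brings the helicase ring to origins, goes from 37.4, 37.1 and 47.2 CPM to 80.3, 67.1 and 70.0 CPM (0.80, standard error 0.11), and GMNN, its inhibitor, from 12.7, 16.7 and 11.4 CPM to 24.7, 25.3 and 24.5 CPM (0.83, standard error 0.13). Both the loader and its inhibitor are higher in every 1CT-A library. The ratio of CDT1 to GMNN counts is 3.10 ± 0.964 (SD, n = 3) in 1CT and 2.92 ± 0.302 (SD, n = 3) in 1CT-A and overlaps between the lines (exact permutation test, two-sided, p = 0.8). The ratio of CDC6 to GMNN counts is lower in every 1CT-A library, at 1.93, 1.58 and 1.95 against 2.69, 2.06 and 2.74 in 1CT (exact permutation test, two-sided, p = 0.1).

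The firing kinase holds the largest rise of the 50 genes. CDC7, the catalytic subunit, on chromosome 1 from 91500851 to 91525764, is at 2.96, 2.66 and 2.18 CPM in 1CT and at 8.42, 10.3 and 9.05 CPM in 1CT-A (log2 fold change 1.78, standard error 0.20, edgeR adjusted p = 8.7e-06). These levels rest on 17 to 25 counts per 1CT library and 94 to 117 counts per 1CT-A library, so its 95% interval is wide, from 1.35 to 2.21. DBF4, its activator, goes from 9.94, 8.33 and 10.3 CPM to 21.5, 20.7 and 22.1 CPM (1.13, standard error 0.13). The ratio of DBF4 to CDC7 counts is lower in 1CT-A, at 2.55, 2.02 and 2.45 against 3.36, 3.14 and 4.71 in 1CT (exact permutation test, two-sided, p = 0.1).

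Of the 7 helicase activation genes, 6 rise. MCM10, which helps to activate the loaded helicase, goes from 27.6, 22.7 and 26.1 CPM in 1CT to 56.7, 52.0 and 54.9 CPM in 1CT-A (log2 fold change 1.06, standard error 0.10, edgeR adjusted p = 1.6e-06). CDC45, the partner of the ring in the active helicase, goes from 14.0, 13.6 and 8.99 CPM to 23.0, 20.9 and 21.4 CPM (0.79, standard error 0.15). The GINS genes differ in their estimates. GINS1, GINS2 and GINS3 rise, with log2 fold changes of 0.87, 0.78 and 0.59 and standard errors of 0.14 each. GINS4 is at 23.2, 17.7 and 22.5 CPM in 1CT and at 27.7, 25.0 and 22.4 CPM in 1CT-A, so the lines overlap (0.20, 95% interval -0.08 to 0.48, edgeR adjusted p = 0.21). The interval of GINS4 overlaps that of GINS3 (0.28 to 0.90). It lies just below that of GINS2 (0.49 to 1.07) and below that of GINS1 (0.56 to 1.18). These differences were not themselves tested. TOPBP1, a scaffold for CDC45 loading and for checkpoint signalling, rises by 0.60 (standard error 0.10).

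All 4 genes of polymerase alpha-primase, which lays down the primers, rise, but unequally. POLA1, the catalytic polymerase subunit, goes from 11.4, 14.97 and 11.8 CPM in 1CT to 25.0, 28.8 and 29.8 CPM in 1CT-A (log2 fold change 1.09, standard error 0.13), while POLA2, its accessory subunit, goes from 28.5, 33.0 and 30.3 CPM to 45.9, 39.6 and 40.5 CPM (0.42, standard error 0.10). The 95% intervals of these subunits (0.81 to 1.38 and 0.20 to 0.63) do not meet. PRIM1, the catalytic primase subunit, has only 10, 11 and 7 counts in 1CT and 28, 35 and 42 counts in 1CT-A (1.34, standard error 0.30, edgeR adjusted p = 0.0024), and its last 1000 bases overlap the more abundant NACA on the same strand of the annotation, so this value is uncertain. PRIM2, the larger primase subunit, rises by 0.56 (standard error 0.22, edgeR adjusted p = 0.047), a call that is lost in 6 of the 14 alternatives, with an adjusted p of up to 0.17.

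The replicative polymerases differ in their subunits. For polymerase delta, which works mainly on the lagging strand, POLD3 goes from 18.8, 19.3 and 22.0 CPM in 1CT to 42.9, 43.9 and 41.3 CPM in 1CT-A (log2 fold change 1.05, standard error 0.10). POLD1, its catalytic subunit, rises by 0.89 (standard error 0.13). POLD2 goes from 129.7, 124 and 149.96 CPM to 186, 188 and 184 CPM (0.43, standard error 0.08). For polymerase epsilon, which works mainly on the leading strand, the catalytic subunit POLE rises by 0.45 (standard error 0.13) and POLE2 by 0.64 (standard error 0.24, edgeR adjusted p = 0.038), the latter with 17 to 55 counts per library and a call that is lost in 7 of the 14 alternatives. The 2 small histone fold subunits part ways. POLE3 goes from 339, 363 and 364 CPM to 688, 651 and 668 CPM (0.87, standard error 0.07, edgeR adjusted p = 2.6e-07). POLE4, on chromosome 2 from 74958643 to 74970128, is at 38.3, 33.3 and 42.6 CPM in 1CT and at 41.5, 43.0 and 39.1 CPM in 1CT-A, which overlap (0.07, 95% interval -0.15 to 0.30, edgeR adjusted p = 0.57). POLE3 also takes part in the CHRAC chromatin remodelling complex.

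The sliding clamp and its loader all rise. PCNA, the ring that holds the polymerases on DNA, on chromosome 20 from 5114953 to 5126626, goes from 49.7, 51.9 and 40.8 CPM in 1CT to 113, 119 and 109.6 CPM in 1CT-A (log2 fold change 1.22, standard error 0.09, edgeR adjusted p = 2.8e-07). PCNA has 3 annotated pseudogene copies that could share its reads, of which only PCNAP1 is among the symbols of the count files. Sharing of reads was not tested for PCNA or for other members with such copies, among them DBF4 and RPA2. Within replication factor C, the loader, RFC3, RFC4 and RFC5 rise by 1.13, 0.98 and 0.92, with standard errors of 0.17, 0.11 and 0.14. RFC1, the large subunit that is particular to this loader, and RFC2 rise by less, by 0.53 and 0.47 (standard errors 0.09 and 0.11), with RFC2 at 21.1, 27.8 and 26.2 CPM in 1CT and 35.0, 36.9 and 35.0 CPM in 1CT-A. The ratio of RFC3 to RFC1 counts is 0.306, 0.235 and 0.170 in 1CT and 0.354, 0.325 and 0.401 in 1CT-A (exact permutation test, two-sided, p = 0.1).

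Replication protein A, which covers single stranded DNA, rises in all 3 subunits. RPA1 goes from 50.6, 56.0 and 50.3 CPM in 1CT to 73.9, 79.1 and 80.2 CPM in 1CT-A (log2 fold change 0.53, standard error 0.08). RPA3 goes from 19.3, 17.1 and 16.2 CPM to 29.9, 28.1 and 29.5 CPM (0.69, standard error 0.11), and RPA2 lies between them at 0.66 (standard error 0.11). The 95% intervals of the 3 subunits overlap.

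In the maturation of Okazaki fragments, FEN1, the flap nuclease, goes from 159, 165 and 154 CPM in 1CT to 320.04, 309 and 296 CPM in 1CT-A (log2 fold change 0.92, standard error 0.07, edgeR adjusted p = 2.4e-07). FADS2 is annotated over its last 1000 bases on the same strand and also rises (1.10, edgeR adjusted p = 6.2e-07), so reads could have been assigned to either. LIG1, the ligase that seals the fragments, rises by 0.59 (standard error 0.09), and RNASEH2A, the catalytic subunit of ribonuclease H2, goes from 27.4, 30.7 and 33.5 CPM to 43.2, 42.8 and 45.7 CPM (0.49, standard error 0.10). All 3 fork protection genes rise. CLSPN, the checkpoint mediator claspin, goes from 90.4, 87.2 and 82.6 CPM to 157, 134 and 137 CPM (0.68, standard error 0.08). WDHD1, which links polymerase alpha to the helicase, goes from 7.34, 10.7 and 7.58 CPM to 14.5, 17.5 and 13.6 CPM (0.79, standard error 0.17), and TIPIN, the partner of TIMELESS, rises by 0.69 (standard error 0.16).

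Across levels, the rise is seen in genes with few and with many counts. The 9 genes with a mean under 10 CPM have a median log2 fold change of 0.69 with a median standard error of 0.20, and the 15 genes of 50 CPM and over have 0.87 with 0.08. The 9 genes include PRIM1, which passes the filter only with its 1CT-A libraries. Between the replicates of a line, the median coefficient of variation of the 50 genes is 10.5% in 1CT and 5.25% in 1CT-A. Genes annotated over the last 1000 bases of a member concern 8 of the 50 genes, which are ORC4, GINS1, GINS2, PRIM1, RFC4, RFC5, FEN1 and RNASEH2A. How reads over such overlaps were assigned, and whether strand was used, is not given in the sources used here, so the values of these genes are uncertain. The neighbours of PRIM1 and FEN1 lie on the same strand and have log2 fold changes of 0.25 (NACA) and 1.10 (FADS2). The other 6 neighbours lie on the opposite strand and run from -0.97 (HOOK2, beside RNASEH2A) to 0.84 (ACVR2A, beside ORC4).

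Other genes of the replication pathway, 55 genes listed by their role but with earlier results of these data known, are less uniform. Of the 54 that could be tested, 37 rise and 4 fall, beside 25.0% and 26.0% of all genes tested, with a median log2 fold change of 0.46. DBF4B, the other DBF4 paralogue, has at most 3 counts in every library and was not tested. MCM8, a helicase of recombination related to the MCM2 to MCM7 genes, has the largest rise, from 12.4 ± 2.399 CPM (SD, n = 3) in 1CT to 29.7 ± 5.40 CPM (SD, n = 3) in 1CT-A (1.23, standard error 0.17). It is followed by the exonuclease EXO1 (1.21, standard error 0.18), the clamp loader subunit DSCC1 (1.07, standard error 0.12), the firing factor MTBP (0.97, standard error 0.34, on 11 to 43 counts per library) and SKP2 (0.96, standard error 0.09), the ubiquitin ligase subunit that targets licensing factors. All 6 genes of chromatin assembly at forks rise, with NASP, a histone chaperone, from 204, 211 and 234 CPM to 414, 421 and 428 CPM (0.92, standard error 0.07). In the fork and checkpoint group 5 of 10 genes rise. ATR, the checkpoint kinase, is at 11.4, 12.7 and 11.2 CPM in 1CT and at 10.6, 10.6 and 11.6 CPM in 1CT-A (-0.14, 95% interval -0.43 to 0.15, edgeR adjusted p = 0.40).

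The 4 genes that fall stand beside members that rise. POLD4, the smallest subunit of polymerase delta, goes from 45.1, 47.2 and 39.4 CPM in 1CT to 26.1, 24.3 and 21.1 CPM in 1CT-A (log2 fold change -0.92, standard error 0.11, edgeR adjusted p = 1.3e-05). The ratio of POLD1 to POLD4 counts is 0.299, 0.243 and 0.306 in 1CT and 0.828, 0.888 and 1.28 in 1CT-A (exact permutation test, two-sided, p = 0.1). POLDIP2, a partner of polymerase delta and PCNA, falls by 0.22 on the log2 scale (standard error 0.07, edgeR adjusted p = 0.020), the least certain of the 4. TICRR, also known as treslin, which works with TOPBP1 and MTBP in loading CDC45, goes from 41.4, 45.8 and 43.1 CPM to 27.7, 26.2 and 25.3 CPM (-0.76, standard error 0.09, edgeR adjusted p = 1.7e-05). CUL4B, a scaffold of the ubiquitin ligase that destroys CDT1 in S phase, goes from 221, 221 and 239 CPM to 145, 137 and 136 CPM (-0.75, standard error 0.07, edgeR adjusted p = 2.4e-06), while its paralogue CUL4A goes from 163, 182 and 161 CPM to 208, 220.04 and 202 CPM (0.28, standard error 0.07, edgeR adjusted p = 0.0061). The libraries of the lines do not overlap for any of these 5 genes.

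**Figure D5:**
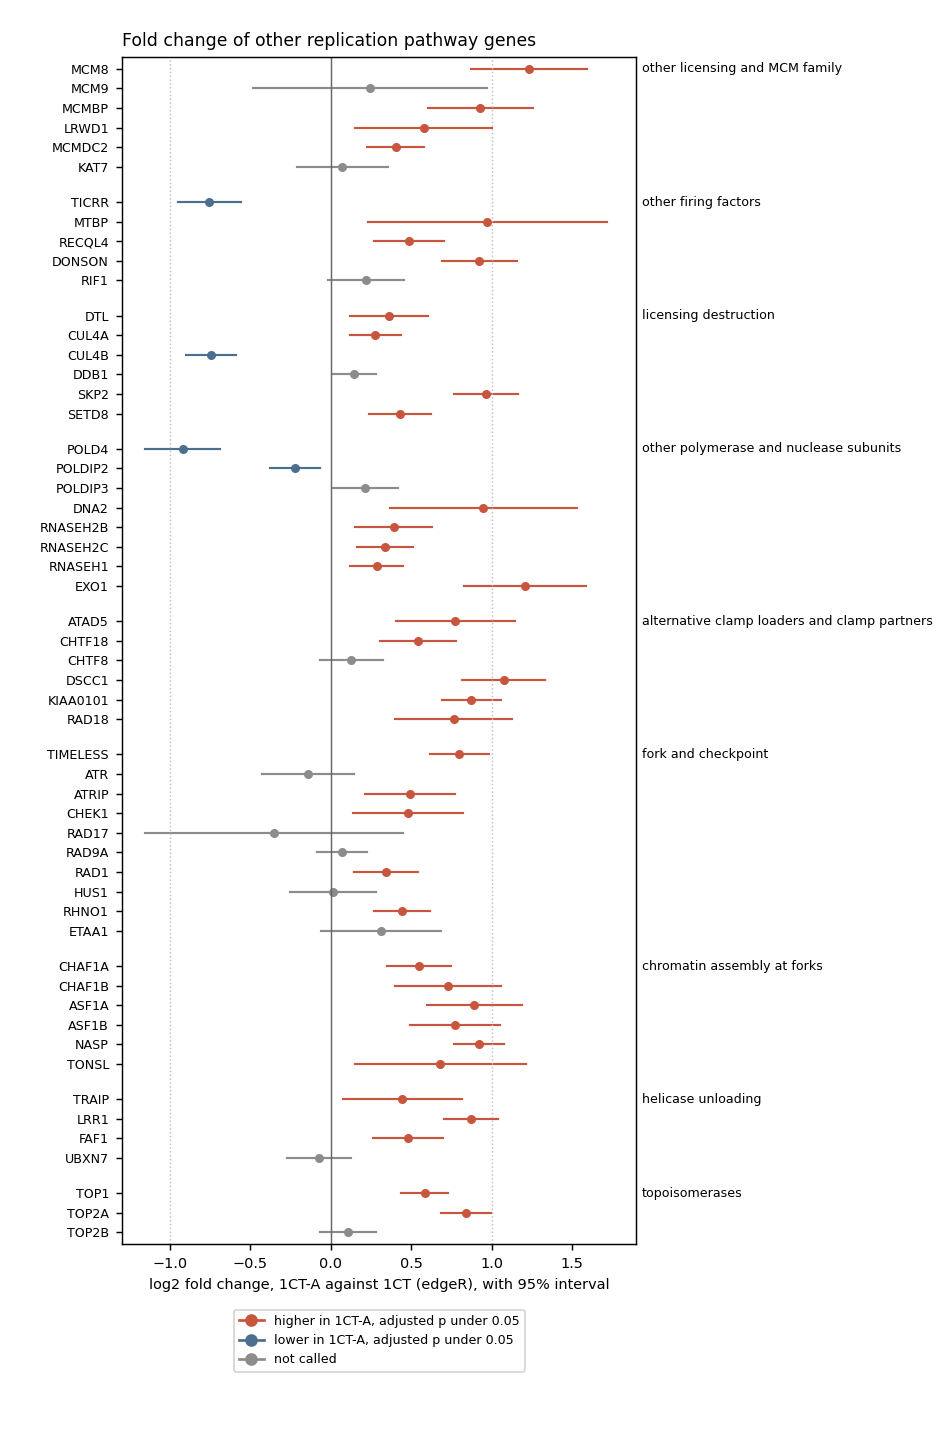
Log2 fold change between 1CT-A and 1CT in edgeR (horizontal axis, positive where 1CT-A is higher) with its 95% interval for the 54 tested genes of the replication pathway outside the 50, by role, with rises in red, falls in blue and genes that did not pass the test in grey, and dotted lines at 2-fold. The 37 rises reach 1.23 at MCM8, and the 4 falls are TICRR, CUL4B, POLD4 and POLDIP2.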

How the data were processed

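The 6 libraries, 3 of 1CT and 3 of 1CT-A, are QuantSeq 3′ libraries (500 ng of total RNA each), read on an Illumina NextSeq instrument, so a count stands for a read near the 3′ end of a transcript and is not divided by gene length. The authors deposited raw counts per gene symbol, 1 file per library, without normalization or pooling. The submitters' processing notes name Bowtie2, edgeR and hg19. The counting tool, the annotation and the use of strand are not given in the sources used here. The paper's methods call the experiment RNA sequencing but also mention a cDNA microarray, and the labels and files are of sequencing.

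Counts of the 286 symbols entered repeatedly were added together, none of them a replication gene. Levels are CPM of the library total. Fold changes come from edgeR 4.0.16 in R 4.3.3, fitted on all genes with TMM (factors from 0.976 to 1.02), the filterByExpr minimum count of 10 and the quasi-likelihood test without covariates, two-sided, with Benjamini-Hochberg adjustment over 12514 genes and calls at an adjusted p under 0.05. Standard errors are the log2 fold change divided by the root of the F statistic. The fit was tested on simulated data, with 200 genes changed, 11400 genes tested and the same dispersion (0.0073) for every gene. There it called 99% of the genes changed by 2-fold and 63% of those given a smaller change. Of its calls, 1.22% were false. In the data far more genes are called, 25.0% higher and 26.0% lower, so these shares are not error rates of the calls reported here. Replicates are not copies of each other (chi-square per degree of freedom from 3.11 to 9.00). The highest values, 7.54 and 9.00, are those of 1CT replicate 3 against the other 1CT libraries. Those other libraries give 3.80 between themselves, and pairs of 1CT-A give at most 4.56. Limits of 3 counts cover counting error only, since the files hold no molecular identifiers.

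The members and lists were chosen with earlier results of these data known. Ratios of counts within a library were compared by exact permutation tests. Values in every library are given for the MCM2 to MCM7 and ORC genes, CDC6, CDT1, GMNN, PCNA, and the highest and lowest member of each other role, and of the pathway list the 5 largest rises and falls that pass the test are named. NASP, ATR and CUL4A were named after their values were seen. The S phase list joins the original and the updated S phase lists of Seurat 5.3.0. Coordinates and overlaps of genes are from GENCODE release 44 on GRCh38, promoters from RefSeq on GRCh38.p14, and neither describes the authors' counting on hg19. The promoter words were searched with no test. Alternatives were 3 other normalizations, 2 other filters, DESeq2 1.42.0, limma-voom (limma 3.58.1), the replicate block, a stricter threshold, and each library left out in turn.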

Additional observations from a re-analysis of the deposited data

How the results depend on the processing

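The number of the 50 replication genes that rise is 48 in the analysis reported and 43 to 48 under the alternatives, with 43 at an adjusted p under 0.01, 45 for upper-quartile normalization and for DESeq2, and 45 to 47 with each library left out. None falls under any of them. The number of rises of at least 2-fold is 12 to 15. The median log2 fold change of 0.77 moves by more than the spread between replicates of a line (0.02) with library size only (0.81), upper-quartile normalization (0.71) and no filter (0.82). With each library left out it is between 0.72 and 0.77, and moves by more than that spread without 1CT replicate 3 and without 1CT-A replicate 1. Of the other pathway genes, 30 to 39 rise under the alternatives, and the 4 falls become 3 without a filter, without 1CT-A replicate 1, without 1CT-A replicate 3 and at an adjusted p under 0.01. Upper-quartile normalization and library size only give medians of all genes of -0.06 and 0.03. Gene by gene, 45 of the 50 genes keep their call and direction wherever the 14 alternatives run on single genes give them a value. ORC3, PRIM2, POLE2 and ORC6 lose their call in 8, 6, 7 and 1 of them, with adjusted p between 0.051 and 0.17, and POLE4, never called, turns to -0.014 without 1CT replicate 2 (edgeR adjusted p = 0.92) and runs up to 0.18 with each other library left out. For PRIM1 no value exists with at least 10 counts in every library, since it has 7 counts in 1CT replicate 3.

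Both lines have replicates numbered 1 to 3. Same-numbered libraries do not deviate together more than others, with correlations of -0.16, 0.22 and -0.14 across 8224 genes. Those of differently numbered libraries run from -0.29 to 0.345, so the numbers are not taken as pairs. With the replicate number as a block, 47 of the 50 genes rise, the median is 0.78, and the call of ORC3 is lost (edgeR adjusted p = 0.060), as the only change of a call among the 50 genes. Depth limits CDC7, PRIM1 and POLE2 most, with 17, 7 and 17 counts in their lowest library. A p value of 0.1 in the exact permutation tests of ratios cannot be smaller in this design.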
